A study of Mus musculus with 22 samples.

Results

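Interferon response genes are the transcripts that cells raise when an interferon binds its receptor. The 39 genes described here were named as a list with earlier results of these data known, and 38 of them were found among the 37620 entries of the count table. The missing one, Psmb9, was not analysed here. By general knowledge of their induction, 21 of the 38 were grouped as led by type I interferon, 12 as led by interferon gamma and 5 as members of both.

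The RNA came from lymphocytes sorted out of mammary tumors of female C57BL/6 mice that carry the PyMT transgene and were 20 to 24 weeks old. PyMT, the polyoma middle T antigen, drives breast tumors when expressed in mammary epithelium, and every group carries it. Tumors were pooled before sorting, so a library does not stand for 1 mouse, and no library came from a mouse without the transgene. The 11 populations had 2 libraries each and came in a pair of sorting schemes. In the first were TCRb+CD8a+NK1.1+, TCRb+CD8a+PD1+, TCRb+CD8a+PD1-NK1.1-, TCRb+CD8a-NK1.1+ and TCR-NK1.1+ cells. In the second were ILC1l (innate lymphoid cells), cNK (conventional natural killer cells), the unconventional T cells TCRab+ILTC1 and TCRgd+ILTC1, and the NK1.1-negative T cells TCRb+CD8a+NK1.1- and TCRgd+NK1.1-. NK1.1 is a surface receptor of natural killer cells and of some T cells, and PD1 is an inhibitory receptor raised on T cells after repeated antigen contact. Nothing in the labels says that the 2 libraries of a population came from separate mice, so the p-values measure the spread between libraries, which may be technical.

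Type I interferons act through the IFNAR receptor on genes that carry the interferon-stimulated response element. Interferon gamma, made by activated T cells and natural killer cells, acts through IFNGR on genes that carry the gamma-activated site, and it also induces IRF1, which binds elements of the first kind. The programs therefore overlap, and few genes answer to only one of them.

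The promoters show this overlap in sequence. Of the 38 genes, 29 had a promoter in RefSeq (GRCm38.p6), 37 promoters in all, each reaching from 250 bases before the start to 50 bases after it. The core of the response element was searched as GAAA followed by GAAA with any 2 bases between them, and the gamma-activated site as TTCNNNGAA, on both strands. Only the 250 bases before the start were searched. The response element core occurred in 36.4% of 22 promoters of type I-led genes, in 46.2% of 13 promoters of gamma-led genes and in 2.98% of all 32851 promoters. TTCNNNGAA occurred in 18.2%, 46.2% and 7.02% of the same sets. Matches of both motifs overlapped in 1 of the 37 promoters. A match describes letters and is not a measured binding site.

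Stretches of 6 of these promoters are shown, the first 3 type I-led and the other 3 gamma-led. Only promoters holding a searched motif were eligible, so that each holds a motif was set by the choice. Genes on an excluded chromosome were not considered. Of the rest, those of smallest p in either test of any difference among populations were taken in each class. Each is written 5′ to 3′ along the gene, and capitals mark the searched motifs. For Ifit3 and Gbp7 the bases just after the start were not found in a transcript of the gene. Their distances to the start are therefore less certain.
Ifit3: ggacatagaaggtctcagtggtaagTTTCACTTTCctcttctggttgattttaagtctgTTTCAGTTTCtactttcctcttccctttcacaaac
Ifit1: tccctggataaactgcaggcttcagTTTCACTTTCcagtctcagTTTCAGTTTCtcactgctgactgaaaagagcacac
Ifit2: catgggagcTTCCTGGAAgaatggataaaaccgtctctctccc
Irf8: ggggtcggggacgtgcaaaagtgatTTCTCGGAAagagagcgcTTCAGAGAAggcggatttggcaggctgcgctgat
Gbp7: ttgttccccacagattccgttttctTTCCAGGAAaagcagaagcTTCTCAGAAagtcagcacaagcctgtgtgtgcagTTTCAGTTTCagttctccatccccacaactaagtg
Irgm1: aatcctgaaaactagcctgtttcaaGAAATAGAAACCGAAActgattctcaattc
The stretches lie at chr19:34583348-34583441 (plus strand) for Ifit3, chr19:34640760-34640838 (plus) for Ifit1, chr19:34550444-34550486 (plus) for Ifit2, chr8:120736162-120736238 (plus) for Irf8, chr3:142530205-142530317 (plus) for Gbp7 and chr11:48871421-48871475 (minus) for Irgm1. Ifit3 held the response element at 2 places on its reverse strand, first bases 156 and 122 bases before the start, and Ifit1 held it 104 and 85 bases before the start. Ifit2, though type I-led, held only the gamma-activated site in this window, 241 bases before its start. Irf8 held the gamma-activated site at 171 and 153 bases and no response element. Gbp7 held both, the gamma-activated site at 106 and 87 bases and the response element at 53. Irgm1, a gamma-led gene, held overlapping response elements at 30 and 24 bases before its start and no gamma-activated site.

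The libraries held 8696335 to 20602715 counts and 12866 to 21446 genes with at least 1 count. Levels are counts per 1000000 counts of the library (CPM) after TMM scaling over the 22 libraries, and they are compared between populations for 1 gene at a time, not between genes. Klrb1c, which encodes NK1.1, lay at 924 to 2466 CPM in the populations sorted as NK1.1-positive and at 5.74 to 82.1 CPM in those sorted as negative. PD1+ CD8 T cells, whose label names no NK1.1 gate, had 3.28 and 0.842 CPM. Cd3e, a subunit of the T cell receptor complex, was at 0.618 and 6.08 CPM in cNK but at 85.8 and 458 CPM in ILC1l and at 216 and 437 CPM in TCR-NK1.1+ cells, a population sorted as lacking the receptor. In the TCRgd+NK1.1- libraries 20 macrophage and other myeloid markers summed to 6758 and 16532 CPM, against 23.1 to 929.7 CPM in the other 20 libraries, so results for that population stand apart below. The second TCRab+ILTC1 library had the fewest genes detected, 12866, and no count of Oasl2 or Iigp1.

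The highest levels of most of the genes were in conventional CD8 T cells. PD1+ CD8 T cells had the highest mean of 30 of the 38 genes among the first 5 populations, 17 of 21 type I-led, 8 of 12 gamma-led and 5 of 5 of both. In the second scheme TCRb+CD8a+NK1.1- cells were highest for 24 of 38 genes, and cNK were lowest for 19 and ILC1l for 8. The lowest population of the first scheme was TCR-NK1.1+ for 20 genes and NK1.1+ CD8 T cells for 12. The heat map of levels by library shows this as a warm band over the PD1+, PD1-NK1.1- and TCRb+CD8a+NK1.1- columns.

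**Figure D1:**
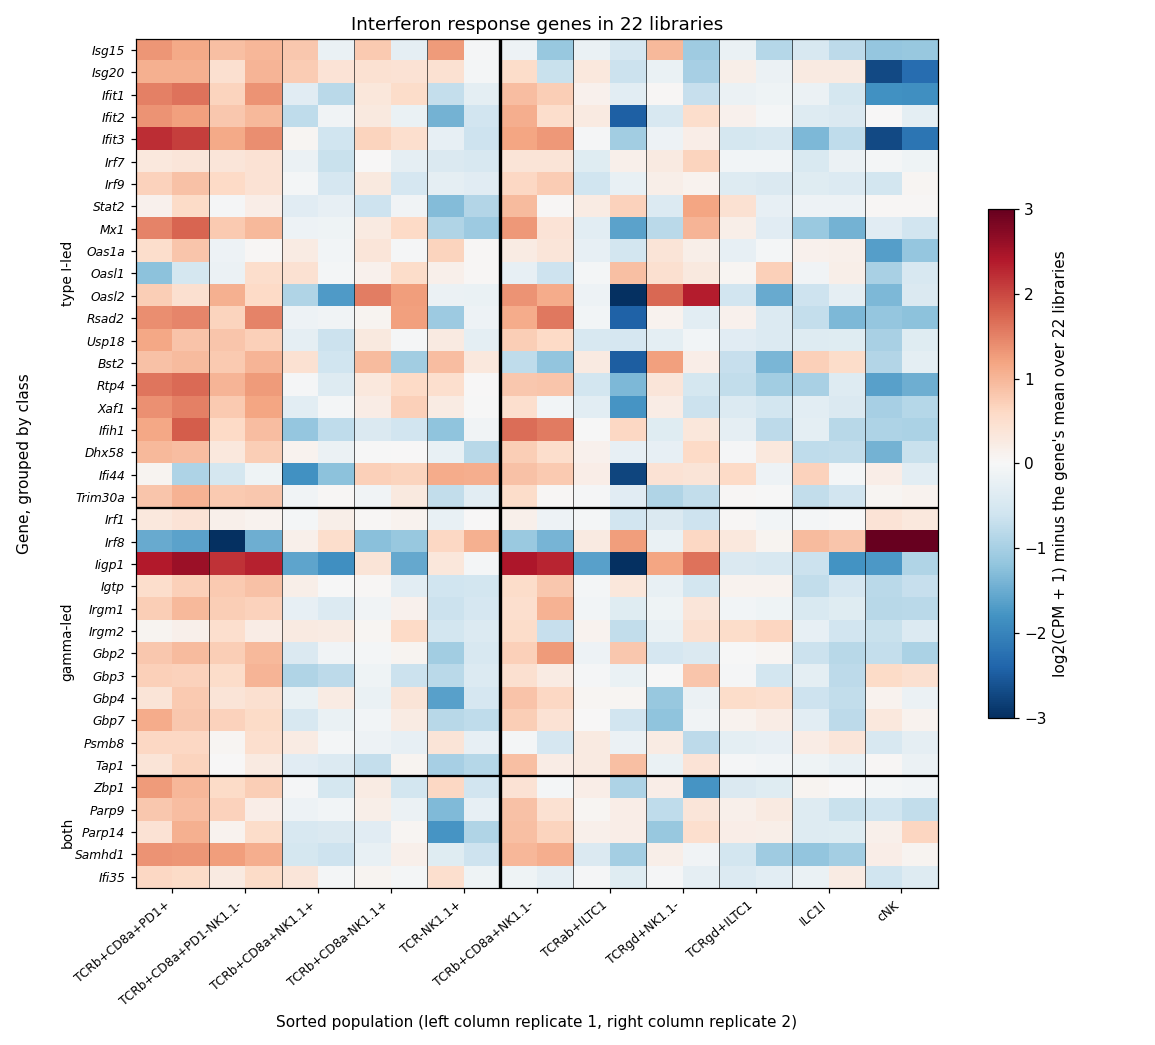
Level of each of the 38 genes (rows, grouped as type I-led, gamma-led and both) in each of the 22 libraries (columns, by population), as the log2 of CPM + 1 minus the gene's mean over the 22 libraries, with colours limited to 3 either way. The PD1+, PD1-NK1.1- and TCRb+CD8a+NK1.1- CD8 T cell libraries carry most of the high values, and Irf8 runs against this pattern.

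How far a gene moved over the 11 populations differed among the genes. The ratio of the highest to the lowest population mean was 24.9 for Ifit3, 37.6 for Iigp1 and 37.6 for Irf8, and 1.85 for Irf1 and 1.93 for Irf7. Irf8 was highest in cNK and lowest in PD1-NK1.1- CD8 T cells. Iigp1 was highest in PD1+ CD8 T cells and lowest in TCRab+ILTC1, where 1 of the 2 libraries had no count. The genes in the middle of their class by range were Xaf1 (5.32) and Isg15 (5.53) of the type I-led, Gbp3 (3.18) and Irgm1 (3.21) of the gamma-led, and Zbp1 (3.11) and Parp9 (2.99) of both. Isg15, which encodes a ubiquitin-like protein, illustrates the spread between libraries, with 87.4 and 76.6 CPM in PD1+ CD8 T cells but 83.6 and 33.3 CPM in TCR-NK1.1+ cells. Zbp1, a sensor of Z-form nucleic acids, was at 188 and 156 CPM in PD1+ CD8 T cells and at 88.9 and 21.8 CPM in TCRgd+NK1.1-. Parp9, an ADP-ribosyltransferase family member, was at 188 and 206 CPM in PD1+ CD8 T cells and 42.3 and 89.6 CPM in TCR-NK1.1+ cells. For Zbp1 and Parp9 the libraries of the highest and lowest population did not overlap. Nor did they for Isg15, whose lowest population was cNK at 14.7 and 15.0 CPM. The Isg15 libraries of PD1+ and TCR-NK1.1+ cells did overlap.

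Averaged over its genes as the mean of log2(CPM + 1), the type I-led class was at 6.995 and 7.06 in the PD1+ libraries and at 5.06 and 5.28 in the cNK libraries. The gamma-led class was at 7.89 and 7.99 in PD1+ libraries and at 7.30 and 7.31 in cNK libraries. Within each class both PD1+ libraries lay above the other libraries of the first scheme, for the gamma-led class by less than the spread between the PD1-NK1.1- libraries (7.64 and 7.89). In TCR-NK1.1+ libraries the gamma-led class was at 6.85 and 7.04, the latter just under the lower NK1.1+ CD8 T cell library at 7.06. The type I-led class was at 5.89 and 5.65 in NK1.1+ CD8 T cells and at 5.91 and 5.83 in TCR-NK1.1+ cells. A difference between the classes was not tested. The second TCRab+ILTC1 library fell far below its partner in the type I-led class, 5.05 against 5.97.

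**Figure D2:**
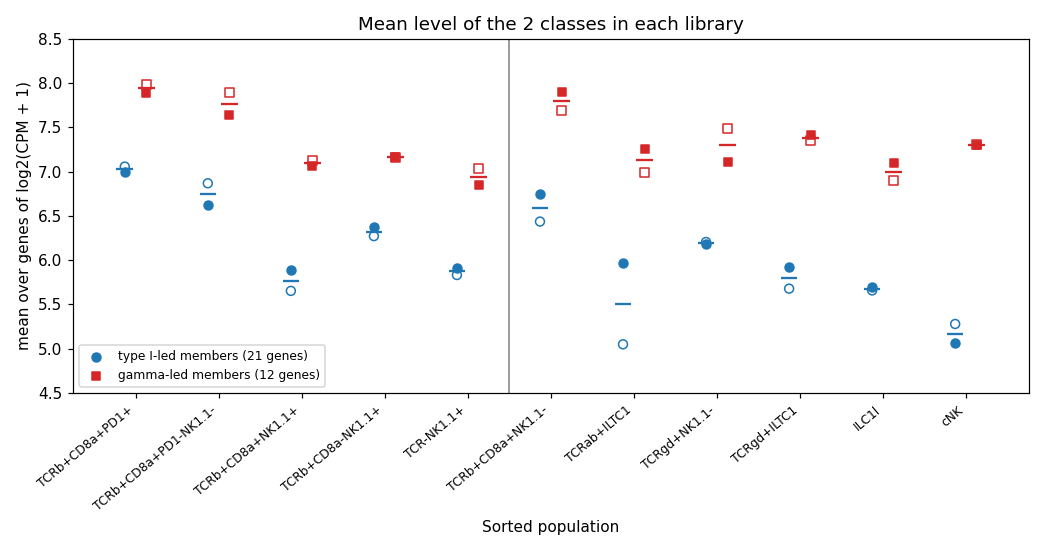
Mean of log2(CPM + 1) over the 21 type I-led and the 12 gamma-led genes in each of the 22 libraries, with the 11 populations on the horizontal axis and each point 1 library and each dash the mean of 2. The type I-led mean runs from 5.05 in a TCRab+ILTC1 library to 7.06 in a PD1+ library, and the levels of the classes are not comparable with each other.

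Among the 5 populations of the first scheme, 19 of the 38 genes differed in at least one population (edgeR quasi-likelihood test, Benjamini-Hochberg adjusted p under 0.05 over 15727 genes), where 6.1% of all genes tested did. They were 10 of 21 type I-led genes, 7 of 12 gamma-led genes and 2 of 5 of both. The smallest adjusted p-values were those of Mx1 (0.00295), Samhd1 (0.00295), Ifit3 (0.00312), Iigp1 (0.00594), Ifit1 (0.00838) and Gbp7 (0.0100). By role, 6 of 8 interferon-inducible GTPases and 6 of 11 antiviral effectors differed, against 1 of 5 transcription factors, Irf8, and 0 of 2 genes of antigen processing, Psmb8 and Tap1. Of the 19, 7 passed in each of the 10 fits that left out 1 library. The count fell to 11 without either library of NK1.1+ CD8 T cells, and to 12 and 10 without the first and the second PD1+ library. Here and below, counts under fits other than the main one stand without the share of all genes called in the same fit. The shares given for the main fit do not apply to them. In any bulk sample a lower level may mean fewer expressing cells or less RNA per cell, and these cannot be told apart.

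The first comparison set NK1.1+ CD8 T cells, which carry a receptor of natural killer cells, against PD1+ CD8 T cells. The NK1.1+ cells held less RNA of 14 of the 38 genes and more of none, where 1.02% of all genes tested were lower and 1.09% higher (2 of the 38 were higher at an unadjusted p under 0.05, as were 5.35% of all genes tested). Both NK1.1+ libraries lay below both PD1+ libraries for 35 of the 38 genes, against 23.5% of all genes tested. The median log2 difference, NK1.1+ minus PD1+, was -1.10 over the 38 genes, -1.23 over the type I-led and -0.73 over the gamma-led, against -0.0024 over all genes tested. The 3 genes on the other side were Irf8, Irgm2 and Oasl1, none of which passed the test.

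Of the antiviral effectors, 6 of 11 were lower. Ifit3, which binds viral RNA together with Ifit1, had 111 and 69.9 CPM in NK1.1+ libraries and 499.6 and 454 CPM in PD1+ libraries. Both PD1+ libraries were above every other library in the series, and the level in NK1.1+ cells was 5.23-fold lower (log2 difference -2.39, SE 0.31, adjusted p = 0.00411). Ifit1 had 122 and 87.6 against 441 and 485 CPM and was 4.40-fold lower (adjusted p = 0.00724). Mx1, a dynamin-like antiviral GTPase whose locus carries a known deletion in C57BL/6 mice, so that its transcript need not mean protein, had 47.1 and 48.2 against 150.3 and 178 CPM (log2 difference -1.78, adjusted p = 0.00752). Samhd1, which degrades deoxynucleotides, had 119 and 109.6 against 432 and 431 CPM. Its libraries were close together within each population, and the log2 difference of -1.91 had an SE of 0.25 (adjusted p = 0.00436). Oasl2, of the oligoadenylate synthetase family, was low in NK1.1+ cells, 9.996 and 5.40 CPM against 33.6 and 27.8 CPM (log2 difference -1.99, adjusted p = 0.0296). Ifit2 completed the 6 called effectors, at 45.8 and 72.6 against 201 and 185 CPM (adjusted p = 0.0466). Reads of Ifit1, Ifit3 and Oasl2 may be shared with near-identical neighbours in the genome, so the split among copies is uncertain.

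Of the sensors of foreign nucleic acid, Ifih1 (the RNA sensor MDA5) was 5.71-fold lower, with 24.1 and 32.3 CPM in NK1.1+ and 125 and 199 CPM in PD1+ libraries (adjusted p = 0.0125). Dhx58 and Zbp1 did not pass. Usp18, the protease that removes Isg15 from proteins and dampens type I signalling, was called at 142 and 111 against 386 and 316 CPM (adjusted p = 0.0333), and Isg15 itself was not. Rtp4, a chaperone with antiviral activity, was at 93.1 and 73.4 against 292 and 316 CPM (log2 difference -1.86, adjusted p = 0.0082), and Xaf1, a proapoptotic gene, at 43.4 and 52.0 against 141 and 156 CPM (adjusted p = 0.0186). Neither gene's libraries overlapped between the populations.

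The gamma-led genes that fell were 4 of the 8 interferon-inducible GTPases, proteins that attack vacuoles holding intracellular pathogens. Iigp1 showed the largest difference of all 38 genes, with 9.73 and 7.84 CPM in NK1.1+ libraries and 165 and 187 CPM in PD1+ libraries. It was 19.9-fold lower (log2 difference -4.32, SE 0.60, adjusted p = 0.00531), and no PD1+ value came near an NK1.1+ value. Gbp7 was at 315 and 383 against 945 and 770.5 CPM (log2 difference -1.29, adjusted p = 0.0238). Gbp3 was at 38.9 and 42.3 against 122 and 119 CPM (adjusted p = 0.0317), and Irgm1 at 131 and 118 against 261 and 308 CPM (adjusted p = 0.0331). The libraries of all 4 were apart. Gbp genes and Irgm genes lie in families of similar copies, which makes the division of reads among them uncertain.

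No transcription factor passed. Irf8, which directs myeloid and natural killer cell development, ran the other way, at 139 and 182 CPM in NK1.1+ and 43.4 and 40.7 CPM in PD1+ libraries, a log2 difference of 1.94 that did not pass (adjusted p = 0.0935). Irf1, Irf7, Irf9 and Stat2 had log2 differences between -1.06 and -0.29. Tap1 and Psmb8, a peptide transporter and an immunoproteasome subunit for antigen presentation, had -0.90 and -0.51. Where a library was left out the number called was 2 and 0 without the first and second NK1.1+ library and 7 and 4 without the first and second PD1+ library, with no change of direction. DESeq2 called 22 lower and 1 higher, the pair of populations fitted alone gave 23, and a fit over all 22 libraries gave 8. The shares of all genes called in these fits are not given, so the counts cannot be read against the edgeR shares above. Myeloid markers summed to 23.1 and 26.6 CPM in NK1.1+ and 97.1 and 176 CPM in PD1+ libraries, at most 176 CPM over 20 genes, and their part in these differences was not tested.

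**Figure D3:**
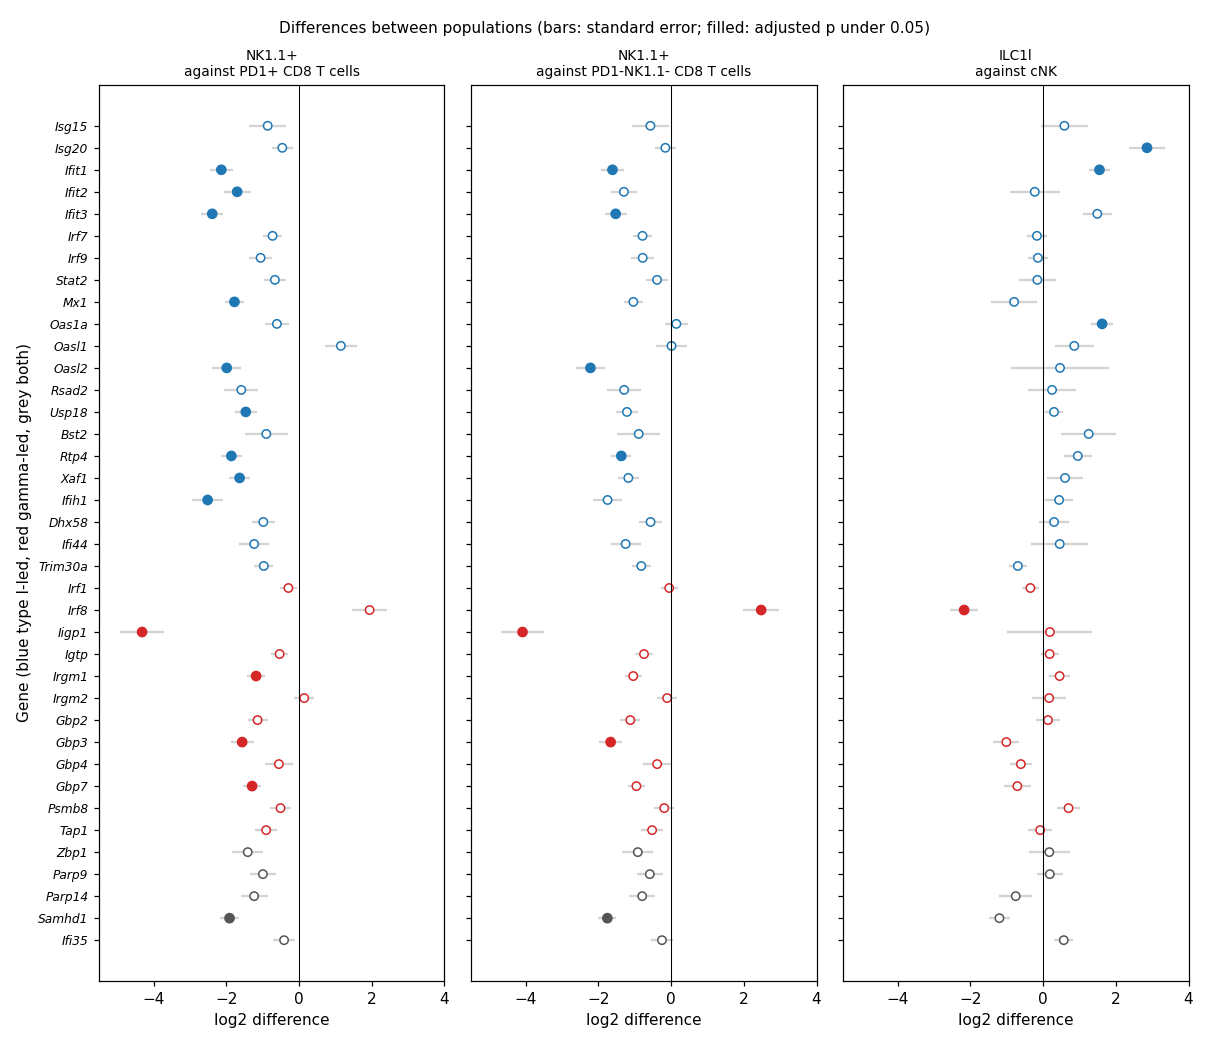
Log2 difference of each of the 38 genes, for NK1.1+ minus PD1+ CD8 T cells (left), NK1.1+ minus PD1-NK1.1- CD8 T cells (middle) and ILC1l minus cNK (right), with bars for 1 SE and filled points for genes that passed (adjusted p under 0.05). In the left and middle panels 35 of 38 points lie below 0, and in the right panel 24 lie above it.

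Against PD1-NK1.1- CD8 T cells, which share the T cell lineage but lack both markers, NK1.1+ CD8 T cells were lower for 7 genes (0.865% of all genes tested) and higher for 1 (0.916% of all genes tested). This comparison uses the same NK1.1+ libraries as the one before, so the 2 are not independent. Both NK1.1+ libraries lay below both PD1-NK1.1- libraries for 30 genes, against 20.4% of all genes tested, and the median log2 difference was -0.855 over the 38 genes and 0 over all genes tested. The 7 lower genes were Iigp1 (142 and 158 CPM in PD1-NK1.1-, log2 difference -4.09, adjusted p = 0.00979), Oasl2 (42.1 and 30.0 CPM, -2.22, 0.0242), Samhd1 (409 and 364 CPM, -1.75, 0.00922), Gbp3 (109 and 149 CPM, -1.66, 0.0318), Ifit1 (245 and 397 CPM, -1.61, 0.0369), Ifit3 (238 and 285 CPM, -1.52, 0.038) and Rtp4 (197 and 235 CPM, -1.37, 0.0418). They divide into 4 effectors, 2 GTPases and Rtp4. Irf8 was the gene that was higher, at 139 and 182 CPM in NK1.1+ cells against 12.9 and 44.96 CPM (log2 difference 2.48, SE 0.50, adjusted p = 0.04). The libraries of the 2 populations did not overlap for Irf8. Without either NK1.1+ library no gene passed, and without the first or second PD1-NK1.1- library 1 and 3 did. DESeq2 called 18 lower and 1 higher.

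PD1+ and PD1-NK1.1- CD8 T cells did not differ detectably in these genes. None passed higher or lower in edgeR, where 0.184% of all genes tested were higher and 0.267% lower, and DESeq2 called 0. At an unadjusted p under 0.05, 3 were higher and 1 lower, against 3.46% and 3.31% of all genes tested. The median log2 difference was 0.28, and both PD1+ libraries lay above both PD1-NK1.1- libraries for 22 of 38 genes, against 18.1% of all genes tested. Ifit3 had the largest positive difference, 0.86 (SE 0.29, adjusted p = 0.47), and Oasl1, a translational repressor of Irf7, the largest negative one, -1.14 (SE 0.45, adjusted p = 0.599). Oasl1 was at 6.90 and 11.9 CPM in PD1+ libraries, the lowest population of all for that gene, and at 15.4 and 25.8 CPM in PD1-NK1.1- libraries.

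NK1.1+ CD8 T cells were also compared with TCR-NK1.1+ cells, the innate lymphocytes with the same NK1.1 marker, again with the same NK1.1+ libraries. One gene was lower (1.27% of all genes tested) and none higher (0.267%). Ifi44, an interferon-induced protein of the cytoplasm, was at 7.65 and 12.1 CPM in NK1.1+ CD8 T cells and 65.0 and 64.6 CPM in TCR-NK1.1+ cells. TCR-NK1.1+ cells had the highest mean of this gene in the series, and NK1.1+ CD8 T cells the lowest (log2 difference -2.71, SE 0.43, adjusted p = 0.0195). At an unadjusted p under 0.05, 6 genes were higher and 3 lower, against 5.01% and 10.4% of all genes tested, and DESeq2 called 1 higher and 3 lower. The median log2 difference was 0.10 over the 38 genes and -0.05 over all genes tested. DESeq2's scaling over all libraries moved the median of all genes by -0.10 here. No gene passed when any 1 of the 4 libraries was left out. The TCR-NK1.1+ libraries held epithelial markers at 8202 and 4994 CPM, against 624 and 737 CPM in NK1.1+ CD8 T cells. Most of the latter sum was Cdh1, at 533 and 676 CPM, and at 284 and 572 CPM in TCR-NK1.1+ cells. Krt18, a keratin, was at 4.09 and 5.23 CPM in NK1.1+ CD8 T cells against 722 and 541 CPM. Myeloid markers were at 599 and 669 CPM in TCR-NK1.1+ cells against 23.1 and 26.6 CPM. The part of either list in Ifi44 was not tested.

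In the second scheme 9 of the 38 genes differed among the 6 populations, where 4.76% of 16828 genes tested did. Irf8 had the smallest adjusted p (0.00251), followed by Ifit3 (0.00789), Samhd1 (0.00987), Ifit1 (0.0109), Ifih1 (0.0148) and Igtp (0.0309), a GTPase of the Irgm family. TCRb+CD8a+NK1.1- cells were the highest of the 6 populations for 5 of these genes: Ifit3 (244 and 265 CPM), Samhd1 (342 and 364 CPM), Ifit1 (297 and 260.4 CPM), Ifih1 (180.3 and 166 CPM) and Igtp (323 and 389 CPM). Irf8 was highest in cNK. Ifit3, Irf8 and Samhd1 passed in each of the 12 fits without 1 library. The count ranged from 4, without either cNK library or the first TCRb+CD8a+NK1.1- library, to 17 without the first TCRab+ILTC1 library. It was 5 without the second TCRgd+ILTC1 or the second TCRb+CD8a+NK1.1- library, 14 and 16 without the first and second TCRgd+NK1.1- library and 14 without both.

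ILC1l and cNK are both innate lymphocytes that carry NK1.1. ILC1l held more RNA of 3 type I-led effectors and less of 1 gamma-led transcription factor than cNK, 3 of 38 genes higher (0.606% of all genes tested) and 1 lower (0.41%). Isg20, an exonuclease that degrades RNA, was at 126 and 126 CPM in ILC1l and 15.1 and 20.7 CPM in cNK, the lowest libraries of the series (log2 difference 2.86, SE 0.49, adjusted p = 0.0275). Ifit1 was at 137 and 107 against 43.5 and 42.2 CPM (log2 difference 1.55, SE 0.29, adjusted p = 0.0432). Oas1a, which makes the oligoadenylates that activate RNase L, was at 62.5 and 63.9 against 17.3 and 24.96 CPM (log2 difference 1.62, SE 0.31, adjusted p = 0.0451), and it may share reads with its close copies. For all 3 the cNK libraries were the low ones and did not overlap those of ILC1l.

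Irf8 was at 243 and 225 CPM in ILC1l and at 1139.98 and 1033 CPM in cNK, a log2 difference of -2.17 (SE 0.38, adjusted p = 0.029). The cNK libraries stood far above every other population, of which the highest library had 299 CPM. The median log2 difference was 0.45 over type I-led genes, 15 of 21 positive, and 0.02 over gamma-led genes, 6 of 12 positive, against 0.03 over all genes tested. The mean log2 level of the gamma-led class was 0.31 lower in ILC1l (difference -0.31, SD 0.14, n = 2 libraries each), and -0.14 (SD 0.15) once Irf8 was left out, a choice made after its value was seen. The median of the class thus had the opposite sign from its mean. The type I-led class was 0.51 higher in ILC1l (SD 0.16). Leaving out any 1 of the 4 libraries left no gene called, with no change of direction, and the pair of populations fitted alone gave 5 higher and 3 lower. DESeq2 called 4 higher and 2 lower. Cd3e, given above, was higher in both ILC1l libraries than in cNK, and 6 T cell markers summed to 664 and 2345 CPM in ILC1l against 312 and 420.2 CPM in cNK. Most of the cNK sum was Cd247, at 295 and 387 CPM there and at 78.5 and 96.8 CPM in ILC1l. By estimate 5 of the 6 were higher in ILC1l, 4 of them called, and Cd247 was called lower. The part of T cell RNA in these differences was not tested. Eomes, a transcription factor of conventional natural killer cells, was at 145 and 187 CPM in cNK and 28.9 and 26.2 CPM in ILC1l, and Itga1, the tissue-residency integrin CD49a, at 3.86 and 7.76 against 342 and 253 CPM.

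**Figure D4:**
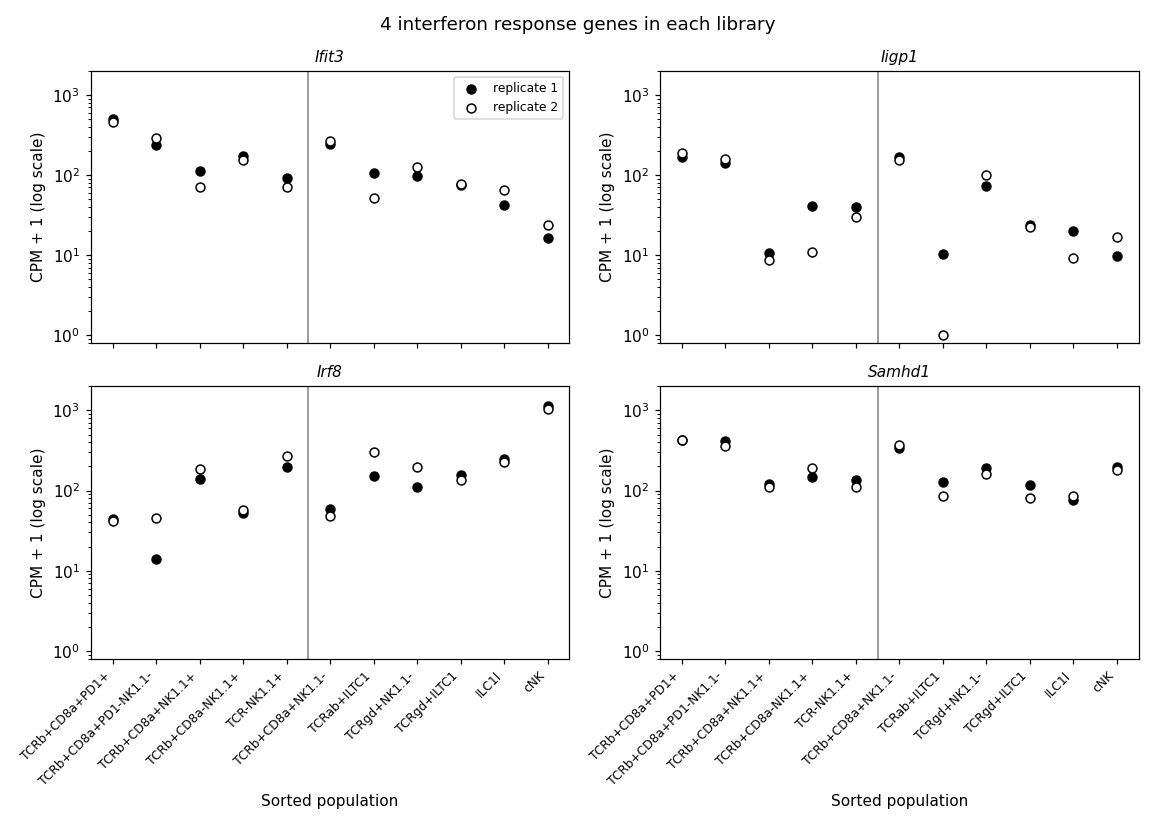
Level of Ifit3, Iigp1, Irf8 and Samhd1 as CPM + 1 on a log axis in each library of the 11 populations, with filled points for replicate 1 and open points for replicate 2. Ifit3, Iigp1 and Samhd1 are high in PD1+, PD1-NK1.1- and TCRb+CD8a+NK1.1- cells, and Irf8 is high in cNK with 1033 and 1139.98 CPM.

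TCRab+ILTC1 cells, which carry a T cell receptor and NK1.1, were compared with the conventional TCRb+CD8a+NK1.1- T cells. Samhd1 was the gene called lower (0.279% of all genes tested) and none was higher (0.244%). It was at 125 and 84.0 CPM in TCRab+ILTC1 and at 342 and 364 CPM in TCRb+CD8a+NK1.1- cells, without overlap (log2 difference -1.78, SE 0.28, adjusted p = 0.0359). The median log2 difference was -0.68 over the 38 genes, -1.13 over type I-led and -0.53 over gamma-led genes, against -0.07 over all genes tested, and 33 of 38 were negative. Both TCRab+ILTC1 libraries lay below both TCRb+CD8a+NK1.1- libraries for 25 genes, against 24.6% of all genes tested. At an unadjusted p under 0.05 there were 16 genes lower and 1 higher, against 9.31% and 4.52% of all genes tested, and DESeq2 called 11 lower and 1 higher.

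Examples that did not pass give the sizes. Ifit3 was at 104 and 51.3 CPM in TCRab+ILTC1 and 244 and 265 CPM in TCRb+CD8a+NK1.1- cells (log2 difference -1.74, adjusted p = 0.093). Iigp1 was at 9.37 CPM and at no count in TCRab+ILTC1, against 169 and 153 CPM (adjusted p = 0.138). Irf8 had 151 and 299 CPM against 57.1 and 47.0 CPM (log2 difference 2.09, SE 0.38, adjusted p = 0.0514). All 3 had libraries that did not overlap, with the second TCRab+ILTC1 library the lowest for Ifit3 and Iigp1. Without the first TCRab+ILTC1 library the count of called genes was 10, and without the second, or without either TCRb+CD8a+NK1.1- library, it was 0. A fit without the TCRgd+NK1.1- libraries gave 4, and the pair of populations fitted alone gave 0. Myeloid markers summed to 488 and 30.7 CPM in TCRab+ILTC1, the latter library with 12 of 20 markers at 0, and to 742 and 929.7 CPM in TCRb+CD8a+NK1.1- cells. Epithelial markers summed to 913 and 782 CPM in TCRab+ILTC1 and to 2352 and 3704 CPM in TCRb+CD8a+NK1.1- cells, and 14 of the 15 tested were lower in the former by estimate, with 2 called. Among them Krt18, a keratin of glandular epithelium, was at 5.91 and 4.69 CPM against 319 and 715 CPM. Cdh1 gave most of the TCRab+ILTC1 sum, at 857 and 742 CPM, against 615 and 623 CPM in TCRb+CD8a+NK1.1- cells. The part of either list in these differences was not tested.

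The effect of ILC1l against cNK and that of TCRab+ILTC1 against TCRb+CD8a+NK1.1- were set against each other by an interaction contrast, added after the values were seen. Irf8 was the one gene for which they differed, lower by 4.26 on the log2 scale in the innate pair (-4.26, SE 0.54, adjusted p = 0.0199, where 0.0773% of all genes tested were lower and 0.178% higher). Both ILC1l libraries lay below both cNK libraries, and both TCRab+ILTC1 libraries lay above both TCRb+CD8a+NK1.1- libraries. It passed in 5 of 5 other settings and in 3 of 8 fits without 1 library, with adjusted p from 7.05e-14 to 0.0733 over all of them. Without the first TCRab+ILTC1 library 11 genes passed, and without either ILC1l library, either cNK library or the second TCRb+CD8a+NK1.1- library none did.

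TCRgd+ILTC1 cells were compared with TCRgd+NK1.1- cells, the population that held macrophage RNA. Epithelial markers summed to 1256 and 791 CPM in TCRgd+ILTC1, of which Cdh1 gave 1208 and 768 CPM, and to 4728 and 2567 CPM in TCRgd+NK1.1-. Of the 15 tested, 5 were called lower in TCRgd+ILTC1 and 1 higher. Krt18 was at 11.7 CPM and at no count in TCRgd+ILTC1, against 621 and 450 CPM. The part of myeloid or epithelial RNA in this comparison was not tested. In edgeR no gene was called higher (0.671% of all genes tested) or lower (0.921%), and DESeq2 called 2 higher and 1 lower. At an unadjusted p under 0.05, 2 were higher and 4 lower, against 6.17% and 11.2% of all genes tested. The median log2 difference was -0.47 over type I-led genes and 0.14 over gamma-led genes, against -0.13 over all genes tested, whose median moved by -0.13 under DESeq2's scaling. The mean level of the gamma-led class was 0.08 higher in TCRgd+ILTC1 with TMM scaling and 0.08 lower with that scaling, so it had no stable direction. Without the second TCRgd+NK1.1- library 1 gene passed. The contrast of the TCRab and TCRgd effects called 0 genes higher (0.0119% of all genes tested) and 0 lower (0.0416%) in edgeR, with 1 higher and 10 lower at an unadjusted p under 0.05, against 4.02% and 4.83% of all genes tested. That contrast was not run in DESeq2. It gave 6 without the first TCRab+ILTC1 library and 1 without either TCRgd+NK1.1- library.

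The macrophage-rich libraries allow each gene to be read against that RNA. All 20 myeloid markers were higher in both TCRgd+NK1.1- libraries than in the other 20 libraries. Of the 38 interferon response genes 1 was, 2.63%, against 4.94% of the 13952 genes with at least 1 CPM on average. That gene was Oasl2, at 67.6 and 104 CPM against at most 58.9 CPM elsewhere. For 10 genes both libraries lay above the median of the other 20, for 7 both lay below it, and for 21 they lay on either side. The second library, with more than the first of the myeloid sum, was the higher of the pair for Mx1 (29.5 and 109 CPM), Stat2 (51.3 and 157 CPM) and Gbp7 (188 and 405 CPM), and the lower for Isg15 (67.4 and 15.8 CPM), Psmb8 (586 and 288 CPM) and Zbp1. These 6 were picked after their values were seen. Irf7, which amplifies type I interferon production, ranked 8 and 1 of 22 there, at 201 and 267 CPM, and had its highest population mean but 1 library inside the range of the others.

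The genes with the lowest ranks in these libraries were Trim30a, Irf1 and Isg20. Trim30a, a regulator of inflammatory signalling, was at 105 and 117 CPM, below the lowest of the other 20 libraries at 118 CPM. Irf1 was at 172 and 152 CPM, ranks 20 and 22 of 22. Isg20 was at 91.6 and 51.5 CPM, ranks 17 and 20. B cell markers also summed higher there, 320.3 and 302 CPM against at most 48.2 CPM elsewhere, and Blk gave 274 and 298 CPM of that. Epithelial markers summed to 4728 and 2567 CPM, inside the range of the other 20 libraries, 73.5 to 8202 CPM. The RNA of other cells was thus not shown to be of macrophages alone. What share of each gene's level in these libraries came from other cells was not tested.

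**Figure D5:**
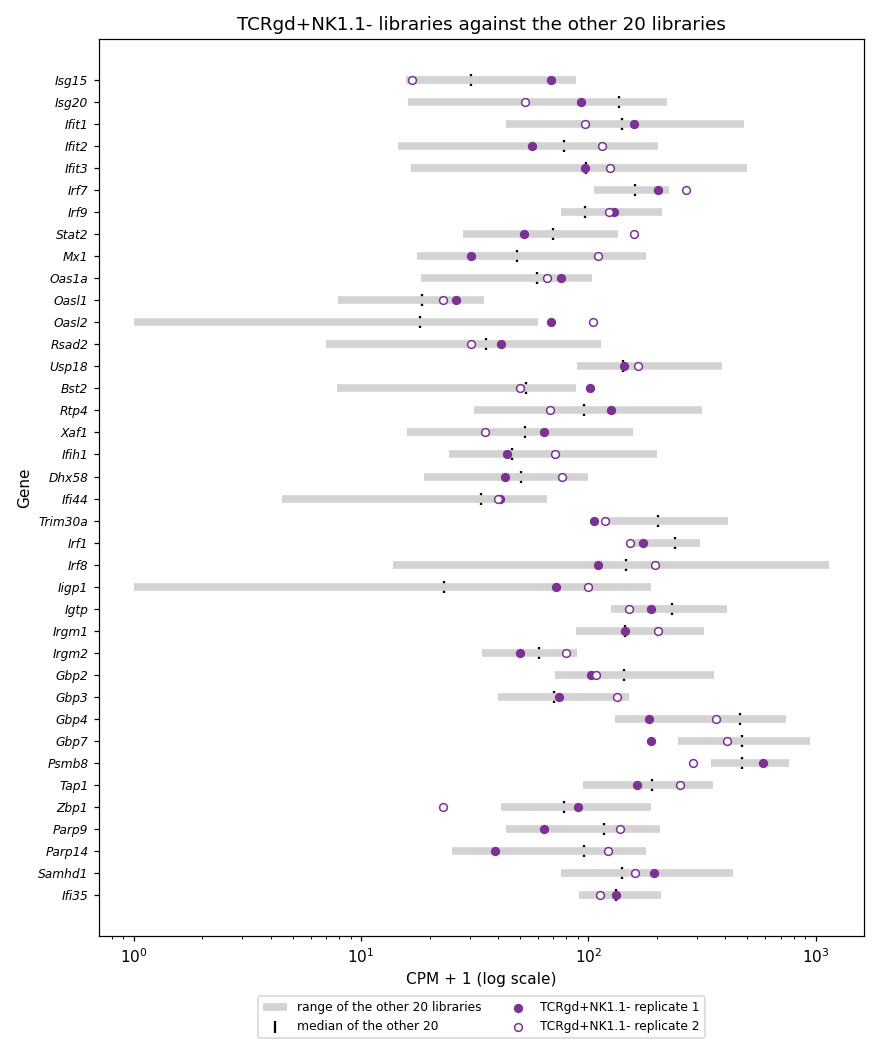
Level of each of the 38 genes in the 2 TCRgd+NK1.1- libraries (points) beside its range and median over the other 20 libraries, as CPM + 1 on a log axis. Oasl2 is the gene with both points above the range, and both points of Trim30a lie below it.

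The interferons and their signalling genes came from a list of 9 ligands, 22 receptor and signalling genes and 40 other interferon-induced genes. Of the ligands only Ifng was expressed enough to be tested in the first scheme. Ifng, which encodes interferon gamma, was at 325 and 371 CPM in PD1+ CD8 T cells and at 42.9 and 66.3 CPM in NK1.1+ CD8 T cells, 6.34-fold lower in the latter (log2 difference -2.66, SE 0.34, adjusted p = 0.00417). Its libraries were apart, and it lay at 101 and 166 CPM in PD1-NK1.1- cells. In cNK it was at 259 and 261 CPM and in ILC1l at 34.9 and 63.6 CPM (log2 difference -2.36, SE 0.37, adjusted p = 0.0156).

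Of the receptors, Ifngr2, the signalling chain for interferon gamma, had no count in either NK1.1+ CD8 T cell library, which allows up to 0.261 CPM, the mean over both libraries of the level that 3 counts in each would give. It was at least 71.6-fold lower than in TCR-NK1.1+ cells (16.3 and 21.1 CPM, adjusted p = 0.00482) and at least 53.2-fold lower than in PD1-NK1.1- cells (18.5 and 9.24 CPM, adjusted p = 0.0029). PD1+ CD8 T cells had 0.402 and 0.374 CPM, also lower than PD1-NK1.1- cells (log2 difference -5.12, adjusted p = 0.0205). TCRgd+NK1.1- libraries held the most, 77.4 and 98.5 CPM. Ifngr1, the binding chain, was at 677 and 697 CPM in ILC1l and 1789 and 1823 CPM in cNK (log2 difference -1.35, adjusted p = 0.0499).

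Irf5, a factor of inflammatory cytokine genes, was higher in NK1.1+ CD8 T cells, 54.3 and 32.8 CPM, than in PD1+ cells, 8.18 and 7.48 CPM (log2 difference 2.48, adjusted p = 0.00721), and than in PD1-NK1.1- cells (2.15, adjusted p = 0.0205). It was also higher in TCRab+ILTC1, 59.4 and 91.6 CPM, than in TCRb+CD8a+NK1.1- cells, 14.6 and 19.3 CPM (2.13, adjusted p = 0.0435). Ptpn6, the phosphatase SHP-1, was higher in TCRgd+ILTC1, 701 and 772 CPM, than in TCRgd+NK1.1- cells, 278 and 331 CPM (1.24, adjusted p = 0.026).

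Of 37 other interferon-induced genes tested in the first scheme, 8 were lower and 0 higher in NK1.1+ than in PD1+ CD8 T cells, where 1.02% and 1.09% of all genes tested were. DESeq2 called 13 lower and 1 higher. The largest were Ifi204 (log2 difference -4.95, adjusted p = 0.00531), a DNA-binding protein of the p200 family, Oas2 (-3.39, adjusted p = 0.0489) and Ifit3b (-2.88, adjusted p = 0.00175), the close copy of Ifit3. Against PD1-NK1.1- cells 7 were lower (0.865% of all genes tested), led by Oas2 (-4.40), Ifi204 (-3.76) and Ifit3b (-2.26), and DESeq2 called 11 lower and 1 higher. Against TCR-NK1.1+ cells 2 were lower (1.27% of all genes tested; 2 lower and 1 higher in DESeq2), Ifitm3 (-4.52, adjusted p = 0.0226), a membrane protein that blocks viral entry, and Ifi204 (-3.91, adjusted p = 0.023). The TCR-NK1.1+ libraries held more myeloid and epithelial marker RNA, as given above. Its part in Ifitm3 and Ifi204 was not tested. ILC1l was higher than cNK for 2 of 38 (0.606% of all genes tested; 8 higher and 0 lower in DESeq2), Ly6e (1.48, adjusted p = 0.0432) and Tgtp2 (1.42, adjusted p = 0.0218), a GTPase with a near-identical copy. For PD1+ against PD1-NK1.1- cells and for both ILTC1 comparisons edgeR called 0 of them. At an unadjusted p under 0.05 there were 2, 10 and 10, against 6.77%, 13.8% and 17.4% of all genes tested. DESeq2 called 0 in the first, 1 higher and 5 lower in TCRab+ILTC1, and 3 lower in TCRgd+ILTC1.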

How the data were processed

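RNA of 22 libraries, 2 for each of 11 sorted populations, was analysed from the gene counts deposited by the authors. The submitters' processing notes name BWA 0.7.5a, Picard and HTSeq, with mm9 and NCBIM37 in roles not stated. Parameters and the strand of counting were not given in the sources used here. Libraries were amplified with a SMARTer kit, per the labels' protocols. Symbols came from GRCm38 names, which matched 32897 of 37620 Ensembl IDs and 99.0% of the counts.

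Each scheme was fitted by itself with edgeR 4.0.16 in R 4.3.3 (TMM, filterByExpr, 1 mean per population, quasi-likelihood test, Benjamini-Hochberg over all genes tested), over 10 libraries and 15727 genes, and 12 libraries and 16828 genes. All 38 genes passed the filter in both. DESeq2 1.42.0, with limma 3.58.1 installed, and fits without 1 library, without the filter, over 22 libraries, of a pair alone and with a replicate block were alternatives. Levels, promoters and figures used Python 3.11.15, pandas 2.3.3, numpy 2.4.6 and matplotlib 3.10.9. Promoters are RefSeq's (GRCm38.p6), another build than the counts. The fit was tested on simulated data. For NK1.1+ against PD1+ CD8 T cells it recovered 2% of genes changed by 1 on the log2 scale and 60% of those changed by 2. For TCRab+ILTC1 against TCRb+CD8a+NK1.1- it recovered 0% and 18%. A gene that was not called may therefore still differ. Within each population the 2 libraries were neither identical nor alike within sampling noise. Numbers 1 and 2 in the labels were not taken to pair libraries.

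The genes, classes and lists were chosen with earlier results of these data known. Named were called genes (up to 8 of largest size each way), the 6 of smallest p per scheme, those highest and lowest in TCRgd+NK1.1- libraries, 2 per class of median range, called pathway genes, up to 3 other induced genes each way, and Ifng; Ifit2 and Usp18 complete a list. A signalling gene is not reported here. Roles, the difference contrasts and the level without Irf8 were chosen after seeing the data. Pearson coefficients with the mean of the myeloid list were computed over 22 libraries and over the 20 without TCRgd+NK1.1-, with no p. Over the 20 they ran from -0.32 (Oasl1) to 0.60 (Ifi44). What lay behind them was not tested.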

Additional observations from a re-analysis of the deposited data

Results flagged for a closer look

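Irf8 differed between a pair of comparisons under the same kind of contrast: ILC1l against cNK and TCRab+ILTC1 against TCRb+CD8a+NK1.1-. Its log2 difference was -2.17 in the former and 2.09 in the latter, and the test of the difference between them gave -4.26 (SE 0.54, edgeR quasi-likelihood test, Benjamini-Hochberg adjusted p = 0.0199). The contrast was added after the values were seen. Irf8 was at 243 and 225 CPM in ILC1l, 1139.98 and 1033 CPM in cNK, 151 and 299 CPM in TCRab+ILTC1 and 57.1 and 47.0 CPM in TCRb+CD8a+NK1.1- cells.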

How the results depend on the processing

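No call changed direction. Of the values of single called genes under the alternatives, 546 kept their side of the threshold and 199 lost the call. With a library left out the count ranged from 10 to 23 for the first scheme, 0 to 7 for NK1.1+ against PD1+, 0 to 3 for NK1.1+ against PD1-NK1.1-, always 0 for NK1.1+ against TCR-NK1.1+, 4 to 17 for the second scheme, always 0 for ILC1l against cNK, 0 to 10 for TCRab+ILTC1, 0 to 1 for TCRgd+ILTC1, 0 to 6 for the TCRab minus TCRgd contrast and 0 to 11 for the ILC1l minus TCRab contrast; fewer libraries also leave a less precise spread. DESeq2 gave 28 for the first scheme, 23 and 19 for NK1.1+ against PD1+ and PD1-NK1.1-, 4 against TCR-NK1.1+, 23 for the second scheme, 12 for TCRab+ILTC1 and 3 for TCRgd+ILTC1. Without the filter there were 13 against PD1-NK1.1-, 3 against TCR-NK1.1+, 20 in the second scheme, 10 for TCRab+ILTC1, 4 for TCRgd+ILTC1, and 3 and 8 for the 2 contrasts. The fit over 22 libraries gave 8 against PD1+, 0 against TCR-NK1.1+, 17 for the second scheme, 7 for TCRab+ILTC1 and 6 for the ILC1l minus TCRab contrast. Pairs alone gave 23, 14, 2, 8 and 0 for PD1+, PD1-NK1.1-, TCR-NK1.1+, ILC1l against cNK and TCRab+ILTC1. Without the TCRgd+NK1.1- libraries there were 14 for the second scheme, 4 for TCRab+ILTC1 and 5 for the ILC1l minus TCRab contrast, which gave 3 under DESeq2's size factors. The gamma-led level of ILC1l against cNK was -0.14 without Irf8. These counts are given without the share of all genes called in the same fit, so a higher count may go with more calls among all genes. The cause of these moves was not tested. At these depths a gene without a count was not detectable, and not shown to be absent.

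With the replicate number as a block, 14 genes were called for NK1.1+ against PD1-NK1.1-, 24 in the first scheme, 19 for NK1.1+ against PD1+ and 2 for the ILC1l minus TCRab contrast. The labels do not say whether a number marks a shared sort or day, and for that reason the numbers were not taken to pair libraries. Correlations of same-numbered deviations were all positive in the first scheme, 0.0545 to 0.227 with a median of 0.157, 8 of 10 pairs above 0.1. In the second they were -0.0406 to 0.123 with a median of 0.0587, 1 of 15 above 0.1. What lay behind these correlations was not tested.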
